A study of Mus musculus with 12 samples.

Results

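The 10 genes described here are regulators of compact wall growth, chosen by name with earlier results of these data known. They include the growth factor Fgf9, its receptors Fgfr1 and Fgfr2, and the muscle gene activators Srf and Myocd. The others are the transcription factors and cofactors Prdm16, Mycn, Meis1, Hopx and Cited2. All 10 were measured, among 18194 genes with a probe set of their own, through 26 probe sets in all. For each gene the values are those of the probe set with the highest mean over the 12 arrays, and the other sets are given beside it. RNA came from left and right ventricles (LV and RV) of mouse embryos at 14.5 days post coitum. The wild-type embryos (WT) were of the CD1 strain, and the knockout embryos (KO) were homozygous for a targeted allele of Nos3, the endothelial nitric oxide synthase gene, on the strain B6.129P2-Nos3tm1unc/J. Each of the 4 groups held 3 arrays, and each array carried RNA pooled from 15 to 30 embryos. No wild-type sample shared the strain of the knockouts, so the Nos3 allele and the strain cannot be told apart in any genotype difference below. The pools were labelled as separate samples, and p-values here reflect only how far such pools differed.

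The compact wall is the dense outer layer of the ventricle, which thickens by division of its muscle cells while the inner trabeculae mature. FGF9, released by the endocardium and the epicardium, acts through FGFR1 and FGFR2 on the muscle and keeps it dividing. PRDM16, MYCN and MEIS1 are transcription factors known from the identity of compact muscle and from its exit from the cell cycle, SRF with its coactivator myocardin switches on contractile genes, HOPX restrains SRF, and CITED2 is a partner of the histone acetyltransferases p300 and CBP that is needed for normal septation.

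Array medians lay between 5.57 and 5.74 and correlations across genes between 0.98 and 1.00. The values had been normalized together by RMA, which makes array medians alike, so these figures do not measure array quality. The mean of a set of nuclear noncoding RNAs ran from 8.64 to 11.26 over the arrays. Nos3 itself was lower in KO by 0.41 in the left ventricle (log2, limma adjusted p = 0.0376) and by 0.66 in the right one (adjusted p = 0.00983). The wild-type right ventricle replicate 3 stood apart from its group on the first principal component (-29.44 against -8.12 and -10.51). It shared with the 3 wild-type left ventricles a high level of the 24 control probe sets for poly-A RNA added before labelling, 8.89 to 8.96 against 7.35 to 8.47 on the other 8 arrays. Where leaving this array out changed a call of a regulator, or moved a list's count by over 1.5 times, the result without it is given. A 2-class term for the control level was also fitted, and within it the left ventricle difference rests on this array alone, because all wild-type left ventricles were in the high class and all KO arrays in the low class. For the right ventricle genotype difference that term gives the same fit as leaving this array out, the only right ventricle in the high class. Under that term 1.08% of all genes were called in the left ventricle, and 14.1% with the control level fitted as a number instead. A list count of 0 under the 2-class term is thus near the share over all genes. All 10 markers of heart muscle were above the median of all values, 5.67, and averaged 12.65 to 12.72 in the wild-type left ventricles. In KO left ventricles this average was 13.01 to 13.21, in wild-type right ventricles 12.78 to 13.09 and in KO right ventricles 13.14 to 13.27. Of the 10, 4 were called higher and 0 lower in the left ventricle, where 18.6% of all genes were called higher and 12.3% lower. Leukocyte markers averaged 7.15 to 7.32 in wild-type and 7.98 to 8.17 in KO left ventricles, with 8 of 9 called higher. Endothelial and endocardial markers averaged 8.59 to 8.78 and 9.06 to 9.25, with 7 of 10 called higher and 1 lower. Smooth muscle and pericyte markers averaged 9.2 to 9.6 and 9.5 to 9.5, with 5 of 9 called higher and 2 lower. Atrial muscle markers averaged 9.0 to 9.2 and 9.2 to 9.5, with 4 of 8 called higher and 0 lower. Liver markers averaged 6.3 to 7.8 in wild-type and 5.6 to 6.4 in KO left ventricles, with 2 of 8 called lower and 0 higher. In right ventricles they averaged 6.6 to 8.9 in WT and 6.2 to 7.0 in KO, with 0 called, where 8.19% of all genes were called. The part of these marker shifts in the differences below was not tested, and in tissue pools fewer cells of a type and less RNA per cell cannot be told apart.

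In the left ventricle, 6 of the 10 regulators were called higher in the knockout and 0 lower. They were Prdm16, Fgfr1, Myocd, Fgfr2, Mycn and Srf, with differences between 0.38 and 0.93 on the log2 scale, or 1.30-fold to 1.91-fold. Fgf9, Meis1, Hopx and Cited2 did not pass the test. The test was limma on 1 probe set per gene, with Benjamini-Hochberg adjustment over all 18194 genes and a threshold of 0.05. By the same rule 30.9% of all genes were called in this ventricle, 18.6% higher and 12.3% lower. All 10 regulators had means above the median of all values. In a fit of only the 11771 genes with means at or above it, 3391 were called higher and 2120 lower, a larger share. Shares of lists below are set beside the share over all genes, dim ones included, so they are not matched for brightness. The median difference of the 10 genes was 0.41, against -0.01 over all genes. For 8 of the 10 all KO values lay above all WT values, as for 23.8% of all genes, and for 0 of the 10 the order was reversed (20.6% of all genes). In the right ventricle 1 of the 10, Myocd, was called higher and 0 were called lower, where 8.19% of all genes were called, 4.61% higher and 3.58% lower. With the replicate number as a block 2 were called higher there, Prdm16 and Myocd. Calls over all 18194 genes rose in that fit too, from 838 higher and 652 lower to 1064 and 945. All KO arrays were above all WT arrays there for 4 of the 10 (Prdm16, Meis1, Hopx and Myocd, 11.8% of all genes) and below them for 1 (Fgf9, 17.6%). The median of the 10 was 0.15 there, against -0.04 over all genes. With each array centred on its median, the share of higher genes among all left ventricle calls went from 60.1% to 39.1%, while 6 of the 10 regulators were still called.

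**Figure D1:**
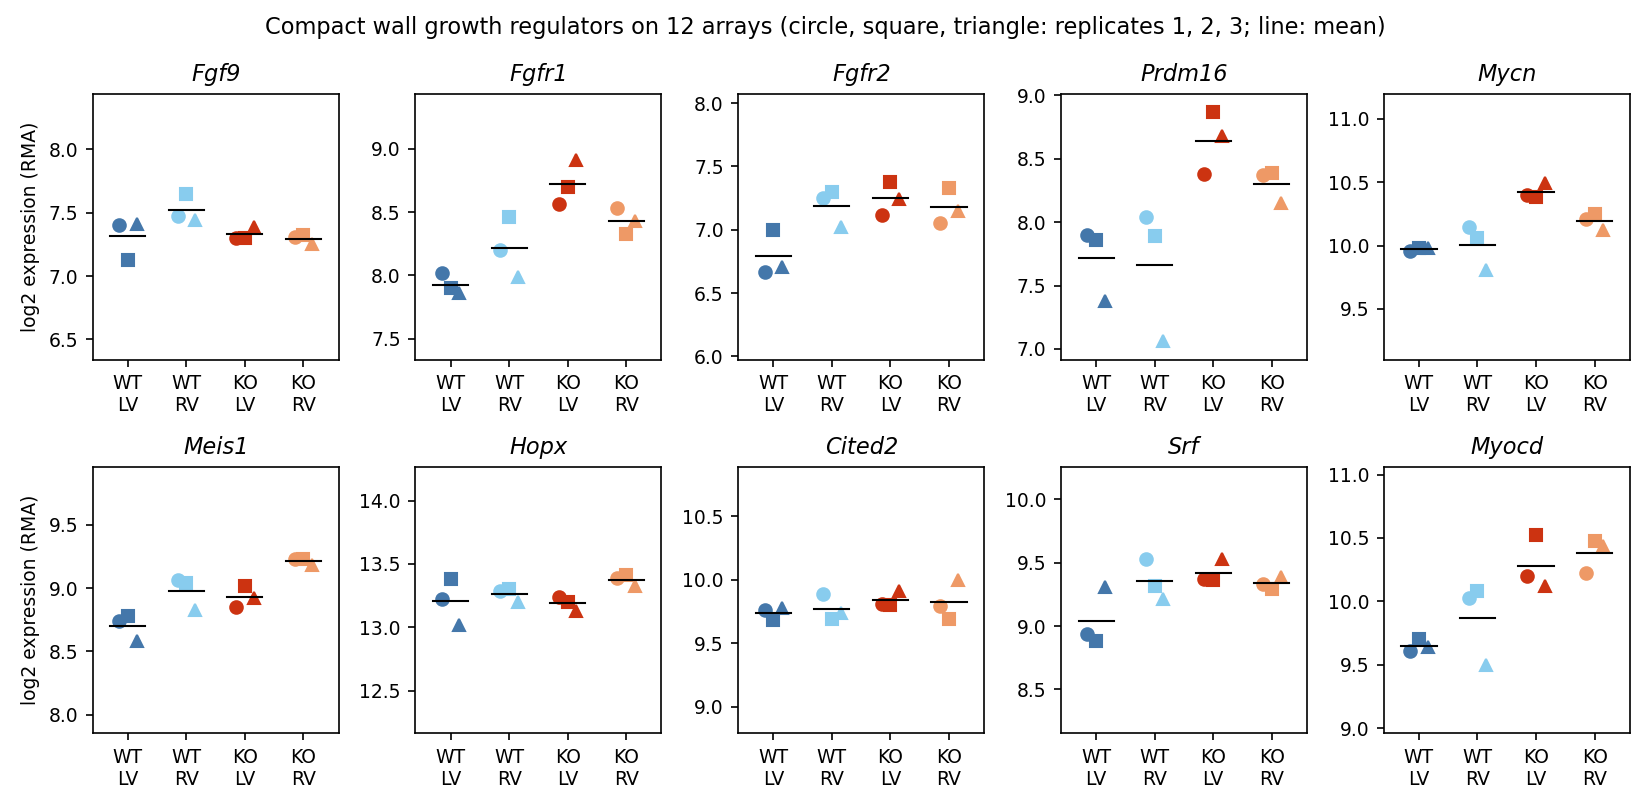
Log2 expression of the 10 regulators (vertical axis, each panel spanning the same number of log2 units) on the 12 arrays by group (horizontal axis). Points are arrays, with circle, square and triangle for replicates 1, 2 and 3, and lines are group means of 3 arrays. Wild-type right ventricle replicate 3 (light blue triangle) was the lowest of its group in 9 of the 10 panels.

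The ligand of the group did not change with the genotype in a way that passed the test. Fgf9 read 7.40, 7.13 and 7.41 in wild-type left ventricles, against 7.30, 7.30 and 7.39 in the knockout, so the groups overlapped. The difference was 0.02 (SE 0.09, 95% interval -0.19 to 0.22, limma adjusted p = 0.916). Wild-type right ventricles gave 7.47, 7.65 and 7.44, against 7.31, 7.32 and 7.25 for the knockout. There each KO array was lower than each WT array, but the difference of -0.23 (SE 0.09) did not pass (limma adjusted p = 0.151). Fgf9 was called lower there in 1 of 25 other settings (limma adjusted p = 0.0393), and its sign was the same in all 25. Its other probe set differed by 0.22 in the left and -0.07 in the right ventricle, neither called.

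Fgfr1, the main FGF receptor of embryonic heart muscle, had the smallest adjusted p in the left ventricle among the 10. Its values were 8.02, 7.90 and 7.86 in wild-type left ventricles, against 8.56, 8.70 and 8.91 in the knockout. The groups were apart by more than the range within either of them. The difference was 0.80 (7.93 ± 0.08 against 8.72 ± 0.18, SD, n = 3 each, SE 0.12, limma adjusted p = 0.000471), which is 1.74-fold. Wild-type right ventricles gave 8.20, 8.46 and 7.99, against 8.53, 8.33 and 8.43 for the knockout, and these groups overlapped. The right ventricle difference was 0.21 (SE 0.12, limma adjusted p = 0.288). The left ventricle call held in 24 of 25 other settings and was lost under the 2-class control term, where the difference was 0.46 (limma adjusted p = 0.325). The other 2 probe sets of Fgfr1 had means of 5.54 and 3.72, below the median of all values, and differed by 0.13 and 0.07 in the left ventricle.

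Fgfr2, the second receptor, was lower in the wild-type left ventricle than in each of the other 3 groups. Wild-type left ventricles read 6.67, 7.0 and 6.71, and KO left ventricles 7.12, 7.38 and 7.24. The difference was 0.45 (SE 0.12, limma adjusted p = 0.0103), or 1.37-fold. In the right ventricles, with 7.25, 7.30 and 7.02 in WT, against 7.05, 7.33 and 7.15 in KO, the groups overlapped and the difference was -0.01 (SE 0.12, limma adjusted p = 0.956). The left ventricle call of Fgfr2 was lost without KO left ventricle replicate 2 (0.39, limma adjusted p = 0.0501). It was also lost with the poly-A control level as a number (0.41, adjusted p = 0.0842), with the 2-class term (0.20, adjusted p = 0.746) and with the mean of its 3 probe sets (0.09, adjusted p = 0.373), and held in 20 of 25 settings. Both other sets lay below the median of all values. They went the other way in the left ventricle, by -0.09 and -0.08, and differed by -0.24 and -0.12 in the right, none called.

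Around these receptors, the genes that carry and restrain the FGF signal were mostly called higher in KO left ventricles. Of 14 measured genes of signal transduction and feedback 11 rose and 0 fell, a share of 78.6% beside 30.9% of all genes, with a median of 0.41. The largest rises were those of the ETS factor Etv5, a transcriptional target of FGF signals (1.00, SE 0.12), the Ras pathway inhibitor Spred2 (0.70) and the docking protein Gab1 (0.68). Of the 4 other probe sets of Spred2 above the median of all values 1 read 0.28 and the rest -0.31 to -0.16, so its direction depends on the set. The adaptor gene Grb2 was among the 11 (0.28, limma adjusted p = 0.0274), but another of its sets was called lower (-0.32, adjusted p over all probe sets = 0.0279). The inhibitor gene Spry4 was not called on its brightest set (-0.10) and was called higher on another (1.03), and both genes were named after their values were seen. Of 10 other FGF ligands 3 were called, 30% beside 30.9% of all genes. Fgf3 was called higher (0.29) and Fgf8 and Fgf4 were called lower (-0.34 and -0.30). Fgf3 and Fgf8 were below the median of all values. Of 4 other receptors and coreceptors 0 were called in limma's test, and the largest of their differences was 0.28 for Fgfr3 (adjusted p = 0.264). For the right ventricle 2 of the 14 transduction and feedback genes rose, 14.3% beside 8.19% of all genes. They were Etv5 (0.55) and the phosphatase Dusp6, a feedback inhibitor of ERK (0.37). Without wild-type right ventricle replicate 3 (the same right ventricle fit as the 2-class control term) the right ventricle count was 0 of 14. Under the 2-class term the left ventricle count was 0 of 14 too, with a median of 0.20. With the control level as a number 3 of 14 were called in the left ventricle, beside 14.1% of all genes.

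**Figure D2:**
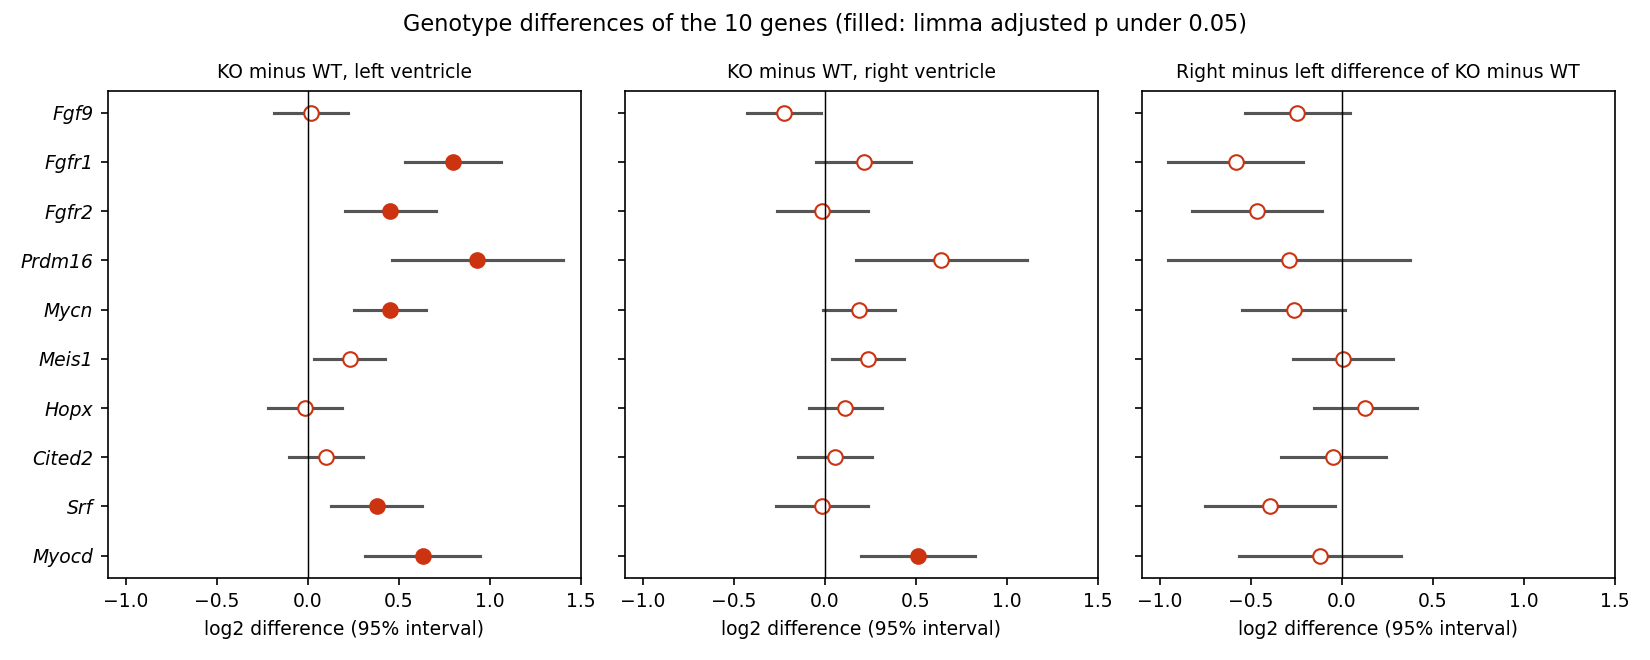
Differences of the 10 regulators on the log2 scale (horizontal axis) with 95% intervals, for KO minus WT in the left ventricle, in the right ventricle, and for the right ventricle difference minus the left one. Filled points passed limma's test over all genes: 6 in the left panel, 1 in the middle panel and 0 in the right panel.

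Prdm16, a zinc finger factor needed for compact muscle identity, showed the largest genotype difference of the 10. Wild-type left ventricles gave 7.90, 7.86 and 7.38, against 8.38, 8.87 and 8.68 for the knockout. All KO values lay above all WT values; the wild-type replicate 3 was the lowest array. The difference was 0.93 (7.71 ± 0.29 against 8.64 ± 0.25, SD, n = 3 each, SE 0.22, limma adjusted p = 0.00611), or 1.91-fold. Wild-type right ventricles gave 8.04, 7.89 and 7.06, against 8.37, 8.39 and 8.15 for the knockout, without overlap. The right ventricle difference of 0.64 (SE 0.22) did not pass (limma adjusted p = 0.0867), but passed in 3 of 25 other settings. These were the mean of its 4 probe sets (0.55, adjusted p = 0.00582), the replicate number as a block (0.64, adjusted p = 0.0368) and the fit without wild-type right ventricle replicate 1 (0.83, adjusted p = 0.0361). Without replicate 3 it was 0.34 (adjusted p = 0.276). In the left ventricle the call was lost with the control level as a number (0.59, adjusted p = 0.114) and under the 2-class term (0.03, adjusted p = 0.984). On this set replicate 3 of the wild-type right ventricle differed from the mean of the other 2 arrays by -0.91.

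The other 3 probe sets of Prdm16 were also higher in the KO left ventricle, 2 of them past the test. The set with a mean of 6.25 read 5.37, 5.67 and 5.95 in wild-type left ventricles, against 6.79, 7.07 and 7.03 in the knockout. In the right ventricles it read 5.61, 5.65 and 5.62 in WT, against 6.57, 6.74 and 6.93 in KO. Every KO array was thus above every WT array, in both ventricles. The differences were 1.30 in the left (SE 0.14, limma adjusted p over all probe sets = 0.000119) and 1.12 in the right ventricle (SE 0.14, adjusted p = 0.000636), among 23.3% and 4.89% of all 45101 probe sets called. Under the 2-class control term they were 1.29 (adjusted p = 0.0634) and 1.12 (adjusted p = 0.00374). The set with a mean of 5.98 differed by 0.78 in the left (adjusted p = 0.00351) and 0.45 in the right ventricle (adjusted p = 0.106). With the 2-class term its left ventricle difference was 0.24 (adjusted p = 0.692). The set with a mean of 5.68 differed by 0.21 and -0.02, neither called.

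Among 11 relatives and corepressors of PRDM16, 5 rose and 0 fell in the left ventricle (45.5% beside 30.9% of all genes), led by Prdm6, a repressor known from smooth muscle (0.53), Mecom, the nearest relative of Prdm16 (0.45), and Prdm10 (0.40). None was called by limma in the right ventricle (0 of 11). Under the 2-class term 0 of 11 were called in the left ventricle, with a median of 0.16 in place of 0.26. Another set of Prdm2, named after its values were seen, was called higher (0.59) where its brightest set was not called (-0.24).

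Mycn, a MYC family factor that drives division of embryonic heart muscle, was closely alike among the wild-type left ventricles at 9.96, 9.98 and 9.98, and read 10.40, 10.38 and 10.49 in KO. The difference was 0.45 (SE 0.09, limma adjusted p = 0.00289), or 1.37-fold, larger than the spread within either group. Wild-type right ventricles gave 10.15, 10.06 and 9.81, against 10.21, 10.25 and 10.12 for the knockout. The WT value of 10.15 lay within the KO range, and the difference of 0.19 (SE 0.09) did not pass (limma adjusted p = 0.222). The other 2 probe sets of Mycn, with means of 6.77 and 6.66, went the other way, by -0.28 and -0.23 in the left and -0.24 and -0.24 in the right ventricle, none called. With the mean of the 3 sets the left ventricle difference was -0.02 (adjusted p = 0.852), so the direction of Mycn rests on its brightest set. The call was also lost with the control level as a number (0.33, adjusted p = 0.0514) and in 2 classes (0.16, adjusted p = 0.693).

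Partners and targets of MYC factors moved both ways. In the MYC network 2 of 10 rose in the left ventricle, the antagonists Mxd1 (0.59) and Mnt (0.41), and 1 fell, the antagonist Mxd3 (-0.50), a share of 30% beside 30.9% of all genes. Other sets of Mxd1 read -0.06 and 0.11. Another set of Mga was called higher in both ventricles (0.83 and 1.02), and another of Mlx lower in the left (-0.42). Their brightest sets were not called, and both genes were named after their values were seen. Of 12 known MYC targets 3 rose, the cyclins Ccnd2 (0.83) and Ccnd1 (0.50) and the nucleolar protein gene Ncl (0.62), and 3 fell, Nop56 (-0.41), Nme1 (-0.39) and Eif4e (-0.29). Together 50% of the 12 were called, beside 30.9% of all genes, and the median of the 12 was -0.02. On the brightest sets Ccnd2, which drives entry into the cell cycle, was the only target called in the right ventricle (0.45, limma adjusted p = 0.0196). Its 6 other bright sets were all higher, by 0.96 to 1.32 in the left and 0.50 to 1.05 in the right ventricle. Another bright set of Ccnd1 was called higher in both ventricles (0.69 and 0.44), and another of Odc1 lower in both (-0.75 and -0.71). Both genes had a further bright set that was not called in either ventricle. Without wild-type right ventricle replicate 3 (the same right ventricle fit as the 2-class term) 0 of the 12 targets were called there on their brightest sets. With the control level as a number it was also 0 of the 12. Among 14 cell cycle genes of dividing cells 3 rose, the replication helicase subunits Mcm3 (0.53), Mcm2 (0.46) and Mcm6 (0.40), and 1 fell, Cdk1 (-0.24), so that 28.6% were called beside 30.9% of all genes. Without wild-type right ventricle replicate 3 the left ventricle counts of this list were 6 higher and 2 lower of 14, and those of the MYC network 3 higher and 2 lower of 10, beside 34.7% of all genes. Another set of the mitotic kinase gene Bub1, named after its values were seen, was called higher (2.28) where its brightest set was not called (-0.20). With the 2-class term 0 genes of these 3 lists were called in the left ventricle.

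Meis1, a homeobox factor that stops heart muscle division after birth, had group means of 8.70 in wild-type left, 8.93 in KO left, 8.98 in wild-type right and 9.21 in KO right ventricles. KO left and wild-type right ventricles overlapped. Wild-type left ventricles gave 8.74, 8.78 and 8.58, against 8.85, 9.02 and 8.92 for the knockout, and right ventricles 9.06, 9.04 and 8.83 in WT, against 9.23, 9.23 and 9.18 in KO. All KO values thus lay above all WT values in each ventricle, but the differences of 0.23 (SE 0.09, limma adjusted p = 0.0704) and 0.24 (SE 0.09, adjusted p = 0.124) did not pass. The left ventricle difference passed limma's test without dim genes (adjusted p = 0.0469) and without wild-type right ventricle replicate 3 (adjusted p = 0.0404). Right minus left ventricle, Meis1 differed by 0.28 in WT (SE 0.09, adjusted p = 0.159) and 0.28 in KO (SE 0.09, adjusted p = 0.217), with all right ventricles above all left ventricles of the same genotype.

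A probe set of Meis1 with a mean of 6.65 went the other way in the left ventricle. It read 7.30, 7.88 and 6.82 in WT, against 6.47, 6.68 and 5.29 in KO, a difference of -1.19 (SE 0.31, limma adjusted p over all probe sets = 0.0175). In the right ventricle it differed by 0.12 (adjusted p = 0.867). Its highest and lowest arrays, wild-type left ventricle replicate 2 and KO left ventricle replicate 3, were also the highest and lowest in the mean of a set of nuclear noncoding RNAs (11.26 and 8.64). The part of nuclear RNA in this probe set was not tested. The remaining set of Meis1, with a mean of 4.18, below the median of all values, differed by -0.21 in the left and -0.42 in the right ventricle, the latter called (limma adjusted p over all probe sets = 0.036). With the mean of the 3 sets of Meis1 the left ventricle difference was -0.39 (adjusted p = 0.0391), against 0.23 for the brightest set, so its direction depends on the set. Among 10 other MEIS and PBX factors and cell cycle targets of MEIS1, 3 rose in the left ventricle, Pbx3, a cofactor of MEIS proteins (0.59), Pknox2 (0.57) and Meis2 (0.52), and 1 fell, the cell cycle inhibitor Cdkn2b (-0.33), together 40% beside 30.9% of all genes. Meis2 also rose in the right ventricle (0.41, adjusted p = 0.00991) and was higher in right than in left ventricles of both genotypes (0.60 in WT and 0.49 in KO, both called). Of its other sets 1 read -1.18 in the left ventricle, and the rest 0.34 and 0.57. Under the 2-class term 0 of 10 genes of this list were called in the left ventricle.

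**Figure D3:**
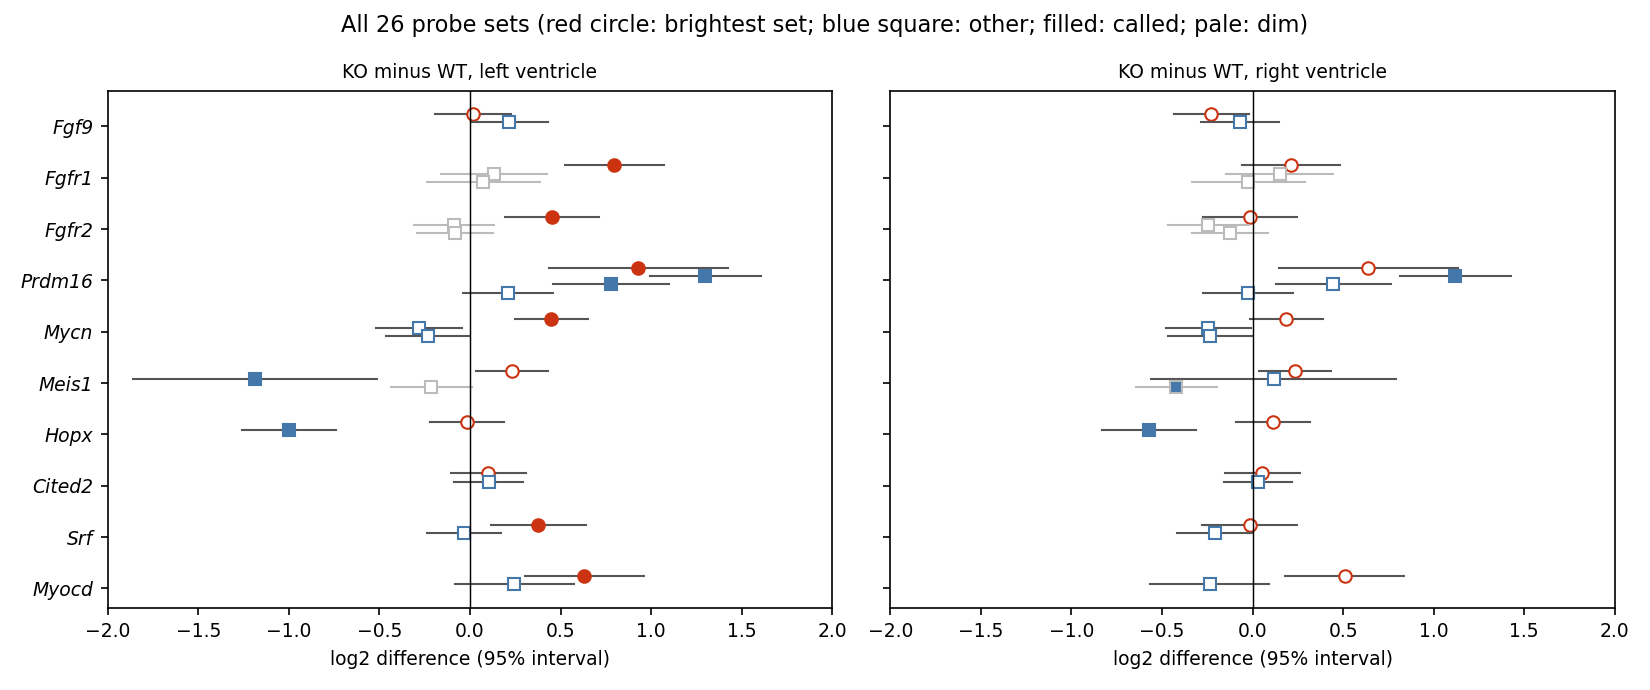
Genotype differences on the log2 scale (horizontal axis, with 95% intervals) of all 26 probe sets of the 10 genes in the left and the right ventricle. Red circles are the brightest set of a gene, blue squares its other sets in order of brightness, filled points passed limma's test over all 45101 probe sets, and pale ones have means below the median of all values. In the left ventricle the sets of Prdm16 lie on the same side, and those of Mycn, Meis1, Fgfr2 and Srf lie on both sides. Of the 2 sets of Hopx the less bright one differs there (-1.0) and the brightest does not pass the test (-0.02).

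Srf, the factor that binds the CArG box of muscle and immediate early genes, and Myocd, its muscle-specific coactivator, were both called higher in the KO left ventricle. Srf read 8.94, 8.88 and 9.31 in WT, against 9.37, 9.36 and 9.53 in KO. The difference was 0.38 (SE 0.12, limma adjusted p = 0.0262), or 1.30-fold, without overlap between the groups. The call was lost without wild-type left ventricle replicate 1 (0.33, adjusted p = 0.091) or replicate 2 (0.30, adjusted p = 0.108), and without KO left ventricle replicate 3 (0.32, adjusted p = 0.0989). It was also lost with the control level as a number (0.34, adjusted p = 0.148) or in 2 classes (0.16, adjusted p = 0.81) and with the mean of both probe sets (0.17, adjusted p = 0.224), and held in 16 of 25 settings. In the right ventricle, with 9.53, 9.32 and 9.21 in WT, against 9.33, 9.29 and 9.39 in KO, the difference was -0.02 (SE 0.12, adjusted p = 0.947). The other set of Srf, with a mean of 7.85, differed by -0.03 in the left ventricle and -0.21 in the right ventricle, neither called.

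Myocd read 9.61, 9.70 and 9.64 in wild-type left ventricles, against 10.20, 10.52 and 10.12 in the knockout. The groups did not overlap. The difference was 0.63 (9.65 ± 0.05 against 10.28 ± 0.21, SD, n = 3 each, SE 0.15, limma adjusted p = 0.00569), or 1.55-fold. Wild-type right ventricles gave 10.03, 10.08 and 9.50, against 10.22, 10.48 and 10.44 for the knockout, without overlap. The right ventricle difference of 0.51 (SE 0.15, limma adjusted p = 0.047) was just past the threshold and held in 6 of 25 settings, among them the replicate block (adjusted p = 0.0234). It was 0.33 without wild-type right ventricle replicate 3 (adjusted p = 0.145) and between 0.46 and 0.59, no longer called, without any 1 of the KO right ventricles (adjusted p 0.0621 to 0.132). In the left ventricle the call was lost with the control level as a number (0.50, adjusted p = 0.0808) and in 2 classes (0.08, adjusted p = 0.92), and held in 23 of 25 settings. Its other set, with a mean of 5.97, differed by 0.24 and -0.24 in the left and right ventricle, neither called.

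The CArG box, which SRF binds, consists of CC, then 6 letters that are A or T, then GG. Promoter windows from 250 bases before to 50 bases after a gene start were taken from RefSeq on build GRCm38.p6, where 8 of the 10 genes had at least 1 window, 9 in all, and Fgfr1 and Myocd were not matched. On both strands, a CArG box was found in 1.63% of all 32851 windows of that length, and among the regulators in those of Srf and Hopx. These windows are shown, 5′ to 3′ on the minus strand, because they hold the motif of a factor that is itself among the 10, with the CArG boxes in capitals. The Srf window lies at chr17:46556113-46556412 and the Hopx window at chr5:77115074-77115373.
Srf promoter: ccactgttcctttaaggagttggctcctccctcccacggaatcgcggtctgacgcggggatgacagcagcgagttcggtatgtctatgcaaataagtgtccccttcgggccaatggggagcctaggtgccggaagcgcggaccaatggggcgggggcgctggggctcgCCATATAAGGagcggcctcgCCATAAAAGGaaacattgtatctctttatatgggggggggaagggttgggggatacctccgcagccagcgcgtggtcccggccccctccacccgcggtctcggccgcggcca
Hopx promoter: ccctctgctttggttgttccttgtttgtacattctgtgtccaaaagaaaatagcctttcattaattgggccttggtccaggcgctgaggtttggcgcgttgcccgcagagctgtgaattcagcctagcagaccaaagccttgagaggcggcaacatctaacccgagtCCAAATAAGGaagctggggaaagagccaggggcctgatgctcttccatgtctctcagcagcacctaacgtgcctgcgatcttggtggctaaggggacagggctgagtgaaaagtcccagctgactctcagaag
The boxes of Srf start at -82 and -62 from the gene start and that of Hopx at -83. The MYC motif CACGTG, found in 7.15% of all windows, occurred in those of Fgfr2, Cited2 and the other window of Hopx. TGACAG, a MEIS motif found in 19.2% of windows, occurred in those of Mycn and Srf. The motif ACGTG of hypoxia factors, which overlaps CACGTG and was found in 19.6% of windows, occurred in those of Fgf9, Fgfr2, Cited2 and both of Hopx. Matches are descriptions of letters in these windows and do not show binding.

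Among 16 known SRF targets 9 rose and 0 fell in the KO left ventricle (56.2% against 30.9% of all genes, median 0.38). Tagln, Acta2 and Cnn1, all among the 9, are also in the list of smooth muscle and pericyte markers. The largest rises were those of Tagln, a smooth muscle actin-binding protein (1.68, SE 0.17), the immediate early factor Fos (1.29) and Vcl, the adhesion protein vinculin (0.87). Of 6 measured SRF cofactors 3 rose (50%), Elk3 (0.60), Elk4 (0.54) and Mrtfb, a relative of myocardin (0.39), and 0 fell. Other sets of Elk4 read -0.17 and 0.05 and another of Mrtfb -0.36. Of the targets 1 of 16 was called in the right ventricle (6.25% beside 8.19% of all genes), Tagln (2.22, limma adjusted p = 2.14e-06), and 0 of 6 cofactors. Without wild-type right ventricle replicate 3, 1 of 6 cofactors was called there. Under the 2-class term 1 of 16 targets was called in the left ventricle, where the median of the targets was 0.16.

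Hopx, a small homeodomain protein without DNA binding that represses SRF activity, had 2 probe sets that gave unlike results. Its brightest set read 13.22, 13.38 and 13.02 in wild-type left ventricles, against 13.24, 13.20 and 13.13 in the knockout, overlapping groups with a difference of -0.02 (SE 0.09, 95% interval -0.22 to 0.18, limma adjusted p = 0.915). Wild-type right ventricles gave 13.29, 13.30 and 13.20, against 13.39, 13.41 and 13.33 for the knockout, a difference of 0.11 (SE 0.09, adjusted p = 0.467). The right ventricle groups did not overlap, and the left ventricle groups did.

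The other set of Hopx, with a mean of 12.32, read 12.59, 12.71 and 12.97 in wild-type left ventricles, against 11.85, 11.74 and 11.68 in the knockout. In the right ventricles it read 12.59, 12.51 and 12.90 in WT, against 12.08, 12.05 and 12.16 in KO. All KO arrays lay below all WT arrays in both ventricles, by more than the range of any group in the left. The difference was -1.0 in the left (SE 0.12, limma adjusted p over all probe sets = 0.000231) and -0.57 in the right ventricle (SE 0.12, adjusted p = 0.0181). It remained called in the left ventricle with the control level as a number (-0.88, adjusted p = 0.00569) and not under the 2-class term (-0.65, adjusted p = 0.175), and the right ventricle difference was -0.45 without wild-type right ventricle replicate 3 (adjusted p = 0.0584). With the mean of both sets Hopx was called lower in the left ventricle (-0.51, adjusted p = 0.00041). The size of the Hopx difference thus depends on the set, and in the right ventricle its direction too (0.11 and -0.57); which transcripts each set reads was not analysed here. Of 4 partners of HOPX 2 rose in the left ventricle, the histone deacetylases Hdac1 (0.44) and Hdac2 (0.27), and Hdac1 also in the right ventricle (0.73, adjusted p = 0.000421). That is 50% of this short list in the left and 25% in the right ventricle, beside 30.9% and 8.19% of all genes, and under the 2-class term 0 of 4 were called in the left ventricle. Another set of the partner Epc1, named after its values were seen, was called lower in the left ventricle (-0.88, limma adjusted p over all probe sets = 0.00224). The brightest set of Epc1 was not called there (-0.04).

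Cited2 hardly varied over the 12 arrays, which lay between 9.68 and 10. Wild-type left ventricles gave 9.76, 9.68 and 9.78, against 9.81, 9.80 and 9.91 for the knockout, without overlap. The differences were 0.10 in the left (SE 0.09, 95% interval -0.10 to 0.30, limma adjusted p = 0.461) and 0.05 in right ventricles (SE 0.09, 95% interval -0.15 to 0.26, adjusted p = 0.756), where WT read 9.89, 9.69 and 9.74 and KO 9.79, 9.69 and 10. Its other set gave 0.10 and 0.03. Of 9 relatives and partners of CITED2 4 rose and 0 fell in the left ventricle (44.4% beside 30.9% of all genes, and 0 of 9 under the 2-class term), led by Cited1, a marker of left ventricular muscle (0.68), the acetyltransferase gene Ep300 (0.67) and Hif1a, the hypoxia factor whose access to p300 CITED2 blocks (0.55). Hif1a also rose in the right ventricle (0.34, adjusted p = 0.03), a call that was lost without wild-type right ventricle replicate 3, where 0 of 9 were called by limma.

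**Figure D4:**
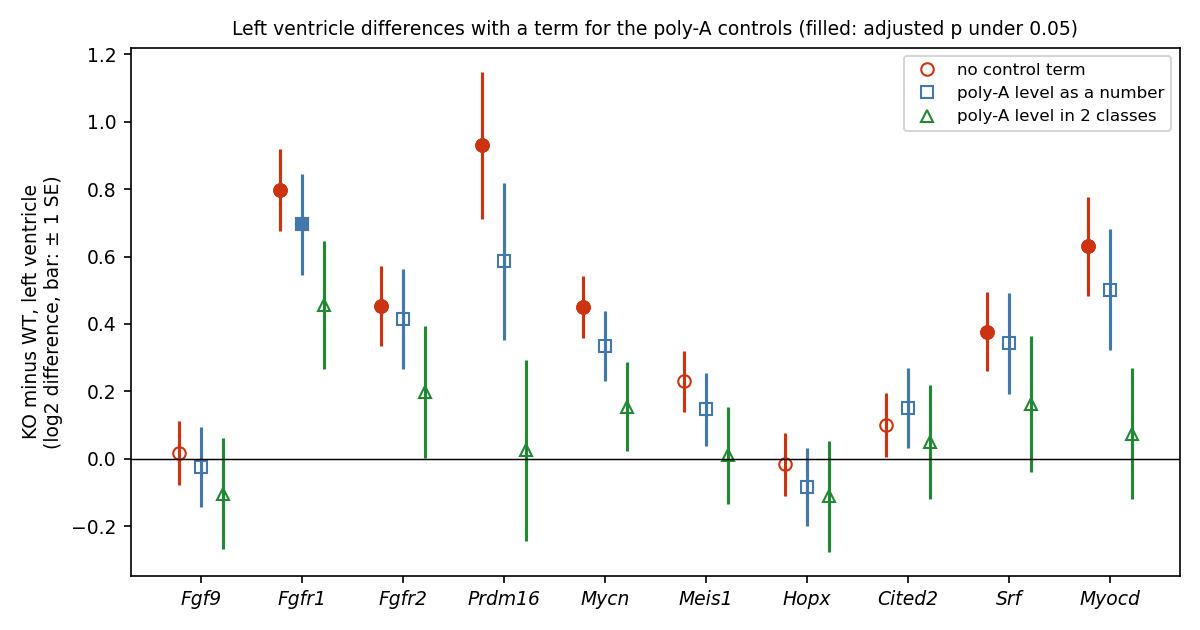
Left ventricle differences (KO minus WT, log2, vertical axis) of the 10 genes without a control term, with the poly-A control level as a number, and with it in 2 classes. Bars are 1 SE either way and filled points have a limma adjusted p under 0.05: 6 genes, 1 gene (Fgfr1) and 0 genes.

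Wild-type right ventricle replicate 3 was the lowest array of its group for 9 of the 10 genes, all but Cited2, where 37.4% of all genes were lowest on it. The gaps to the mean of the other 2 arrays ran from -0.91 for Prdm16 and -0.56 for Myocd to -0.10 for Hopx. Without this array 7 of the 10 genes were called in the left and 0 in the right ventricle, beside 34.7% and 5.31% of all genes. With the control level as a number 1 of 10 was called in the left ventricle and 0 in the right, beside 14.1% and 4.41% of all genes. With the 2-class term the counts were 0 and 0, and 197 genes in all were called in the left ventricle in place of 5617. The right ventricle count under that term comes from the same fit as the one without this array. The part of the labelling controls in the members' differences was not tested beyond these fits.

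The difference between the ventricles in the genotype effect was tested directly by the interaction of genotype and ventricle. By limma 0 of the 10 genes were called, as were 4 of all 18194 (0.022%). An unadjusted p under 0.05 was reached by 3 of the 10, beside 2537 of all genes. These were Fgfr1 (right minus left -0.58, SE 0.17, adjusted p = 0.314), Fgfr2 (-0.47, SE 0.17, adjusted p = 0.314) and Srf (-0.39, SE 0.17, adjusted p = 0.333). Without wild-type right ventricle replicate 3 the interaction of Fgfr1 was called (-0.70, adjusted p = 0.0296), while those of Fgfr2 (-0.55, adjusted p = 0.0597) and Srf (-0.47, adjusted p = 0.108) were not. In that fit 1309 of all genes were called, and with array weights 1364, among them Fgfr1, Fgfr2 and Srf. The interactions of these 3 genes were thus called in 1 or 2 of 24 other settings and not in the unweighted fit of all 12 arrays.

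Between right and left ventricles of the same genotype, 0 of the 10 genes were called by limma in WT and 0 in KO, where 0.984% and 1.14% of all genes were called. At an unadjusted limma p under 0.05 there were 5 in WT and 3 in KO, beside 3105 and 1879 of all 18194 genes. In WT the right ventricle was higher in 9 of the 10 genes, with a median of 0.21 against 0.05 over all genes, and Fgf9, Fgfr2 and Meis1 were higher without overlap, 3 of 10 beside 10.9% of all genes, while 0 of 10 were lower without overlap beside 4.85%. Without wild-type right ventricle replicate 3 the differences of Fgfr2 (0.48, adjusted p = 0.0295) and Meis1 (0.35, adjusted p = 0.0306) were called. In that fit 1169 of all genes were called higher and 565 lower, in place of 139 and 40. In KO the median was -0.05. Fgfr1 (-0.29) and Mycn (-0.23) were lower in all KO right than in all KO left ventricles, and Meis1 (0.28) and Hopx (0.19) higher, 2 of 10 each way beside 10.4% and 9.24% of all genes.

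Among other genes of the compact wall, 4 of 8 rose in the KO left ventricle and 0 fell (50% beside 30.9% of all genes), led by the T-box factor Tbx20 (0.95), Nfatc3 (0.50) and Ctnnb1, beta-catenin (0.40), with a median of 0.34. Other sets read 1.07 and 0.06 for Tbx20, 0.31 for Nfatc3 and 0.19 and -0.17 for Ctnnb1. Of the 8, 2 rose in the right ventricle (25% beside 8.19% of all genes), Tbx20 (0.49) and the repressor Hey2, a marker of compact muscle (0.34), and without wild-type right ventricle replicate 3 it was 0 of 8. Genes of the trabeculae, the inner layer, rose as well, 7 of 10 in the left ventricle (beside 30.9% of all genes), led by the guidance receptor Robo1 (2.12), and 4 of 10 in the right (beside 8.19%), Hapln1 (1.56), Robo1 (1.53), Vcan (1.26) and Irx3 (0.77). The other trabecular genes were not called in the right ventricle: Nppa (0.41), Bmp10 (0.29), Nppb (0.19), Sema3a (0.05), Slit3 (-0.08) and Gja5 (-0.17). In the left ventricle Sema3a (0.43), Slit3 (0.19) and Nppb (-0.14) were not called on their brightest sets. Another set of Sema3a was called higher there (0.78, limma adjusted p over all probe sets = 0.0265). The right ventricle count of the trabecular list was also 4 without wild-type right ventricle replicate 3, beside 5.31% of all genes. For that ventricle this is the same fit as the 2-class term. The left ventricle medians were 0.34 for the compact wall list and 0.69 for the trabecular list. Under the 2-class term 0 genes of either list were called in the left ventricle, with medians of 0.14 and 0.63, and 1.08% of all genes were called.

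**Figure D5:**
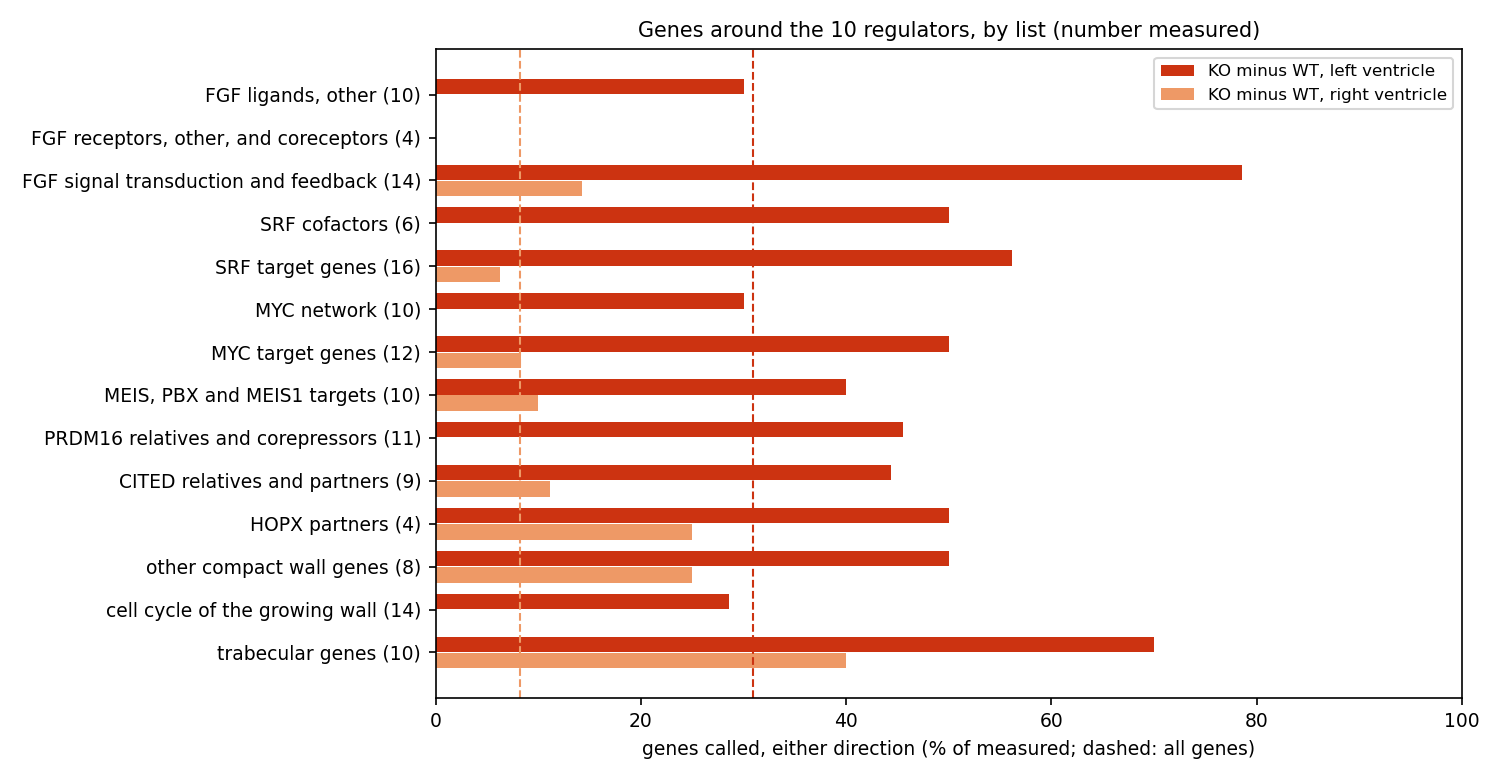
Share of measured genes called in either direction (horizontal axis, percent) in each list of genes around the 10 regulators, for KO minus WT in the left and the right ventricle, with the number measured in parentheses. Dashed lines mark the shares over all genes, 30.9% and 8.19%. The list of FGF signal transduction and feedback reached 78.6% in the left ventricle.

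The genes whose values followed those of the 3 most variable regulators most closely over the 12 arrays were sought by the root mean square difference of values centred on each gene's own mean. For Prdm16 they were Cd44 and Slc24a2, each at 0.15 log2 units. For Fgfr1 they were Asap2 (0.08) and Kif21b (0.08), and for Myocd Herc2 (0.07) and Ncoa6 (0.09). Herc2 differed between the genotypes by 0.76 in the left and 0.45 in the right ventricle, and Cd44 by 0.85 and 0.60.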

How the data were processed

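Total RNA from 12 pools of embryonic ventricles was labelled from 100 ng and run on Affymetrix arrays, as the labels' protocols state. The deposited values are on the log2 scale, 1 per probe set and array, and were made by the authors with RMA, per the submitters' processing notes (version and build not given in the sources used here). Of 45101 probe sets 34958 carried 1 gene symbol, 932 several and 9211 none. Symbols of 34754 sets were matched to RefSeq (GRCm38.p6), with 0 changed. Per gene the single-symbol set with the highest mean was kept, without a filter on dim sets. Group means were fitted with limma 3.58.1 in R 4.3.3 (lmFit and eBayes), p-values were adjusted over all 18194 genes by Benjamini-Hochberg, and the threshold was 0.05. The fit was tested on simulated data. Each of the 5 comparisons was refitted under up to 25 alternatives, among them the 2-class control term, which was added after seeing the data. Comparisons with a common group share its arrays. Up to 3 called genes in each direction were named per list by size of difference, and 2 like-patterned genes for each of 3 regulators. The regulators and lists were chosen with earlier results of these data known. The number of arrays limits the precision. Replicate numbers were checked for pairing by the correlation of deviations from group means. It was over 0.1 for 13 of 18 same-numbered and 6 of 36 other pairs, and 8 of 12 arrays correlated best with their own number. Every same-numbered pair passed 0.1 between the right ventricle groups (0.11, 0.26 and 0.31) and between the KO groups (0.21, 0.29 and 0.26), but not between the left ventricle groups (0.011, 0.14 and 0.42). The labels do not say what a number marks. The fit with the number as a block is therefore given beside the right ventricle results.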

Additional observations from a re-analysis of the deposited data

How the results depend on the processing

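In the left ventricle 6 regulators were called. The count was 1 with the poly-A control level as a number and 0 with it in 2 classes, and leaving out 1 array at a time gave 5 to 7. In the right ventricle 1 was called. The count was 0 with every probe set on its own, with quantile normalization once more, with median centring, with only the 2 groups compared, with either control term, with the 2 arrays of unlike nuclear RNA left aside and at 0.01, and leaving out 1 array gave 0 to 2. For the interaction, 0 became 3 with array weights and 0 to 1 without 1 array. For right against left ventricle it became 4 in WT (0 to 2 without 1 array) and 1 in KO (0 to 0). Array weights raised calls over all genes as well. For right against left ventricle they went from 139 higher and 40 lower to 1435 and 777 in WT. In KO they went from 100 and 108 to 317 and 367, and for the interaction from 0 and 4 to 517 and 847. With each gene's probe sets averaged, the left ventricle direction turned for Mycn (-0.022) and Meis1 (-0.39). The causes were not tested.

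With the replicate block, 7 regulators were called in the left ventricle (Meis1 added, adjusted p = 0.0466) and 2 in the right, and it changed no other call of a regulator. Over all genes the block fit called 3686 higher and 2638 lower in the left ventricle, in place of 3378 and 2239. In the right ventricle it called 1064 and 945, in place of 838 and 652.

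Over all genes 5617 were called in the left ventricle, 10486 of the 45101 probe sets on their own, 2558 and 197 with the control terms, 2738 without the 2 nuclear RNA arrays and 3093 at 0.01. In the right ventricle 1490 were called, 2858 with array weights, 928 with only 2 groups, 803 and 967 with the control terms and 533 at 0.01. Median centring moved left ventricle differences by -0.09. Of left ventricle calls 60.1% were higher, 50.3% after quantile normalization.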
